A study of Homo sapiens with 20 samples.

Results

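Cadherins and protocadherins are cell surface adhesion proteins, and their transcripts were examined for N6-methyladenosine (m6A) in a pair of bladder cancer cell lines. The members were protein-coding genes of the GENCODE annotation on hg38 whose symbol begins with CDH and a number, begins with PCDH, or is FAT1, FAT2, FAT3 or FAT4. There were 92 members of 20046 protein-coding genes. They were 22 classical and related cadherins (CDH), 4 FAT genes, 13 protocadherins outside the gene clusters (nonclustered PCDH) and 53 clustered protocadherins, of which 15 were PCDHA, 16 PCDHB and 22 PCDHG genes. A peak belonged to a member when its summit, the position of highest signal, lay in an exon of the gene. This gave 918 of 231465 peaks, which fell into 162 of the 43676 regions obtained by merging overlapping peaks of all libraries. A gene with at least 1 such peak in any library, in an exon used by no other member, is called marked. Regions are numbered from 1 along the chromosome within each gene.

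m6A was mapped by methylated RNA immunoprecipitation sequencing (MeRIP-seq), in which RNA fragments are pulled down with an anti-m6A antibody and compared with input RNA that was not pulled down. T24 is a human bladder cancer line sensitive to cisplatin. T24R2 was derived from T24 by serial exposure to cisplatin and was maintained with the drug, so line and drug exposure cannot be told apart. Each line had 5 pull-down (IP) libraries taken at day 3, all with wild-type genotype, and each line is 1 cell population. The 5 input libraries per line entered here only through the authors' peak calls. The comparison asks which of these adhesion transcripts carry peaks in the sensitive and in the resistant line.

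Classical cadherins join neighbouring cells through calcium-dependent binding outside the cell and anchor to the actin cytoskeleton through catenins. Protocadherins share the extracellular cadherin repeats but have different cytoplasmic parts, and the clustered ones give neurons combinations of surface identity. Each PCDHA or PCDHG transcript joins its own long first exon to short constant exons that the whole cluster uses, whereas PCDHB genes have no shared constant exon. FAT proteins are giant cadherins linked to planar polarity and growth control. m6A is written mainly within the motif DRACH, and is known to be frequent in long internal exons and near stop codons.

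The sequences below are 30 bases of hg38 around the median summit, written 5′ to 3′ on the strand of the gene. Capitals mark the DRACH match nearest to the summit (A, G or T, then A or G, then A, then C, then A, C or T), where it lies within the 30 bases. The first set holds the 12 regions that every library of one line and none of the other line called, 10 of them in T24 and 2, in PCDHB14 and PCDH17, in T24R2. Of these 12 sequences, 9 hold a DRACH match and 3 do not, although all 12 have a match within 50 bases of the summit. GGAC, a common form of the motif, stands in 2 of them.
CDH5 region 4 (chr16:66392655-66392684, plus strand): ctcaccagtcctatgtggtaagatcTGACA
CDH6 region 1 (chr5:31323172-31323201, plus strand): tggcggattccctgagctcgctggagtcag
CDH8 region 2 (chr16:61901314-61901343, minus strand): aaaaggctgagtatacccTAACAgctcaag
FAT3 region 2 (chr11:92798633-92798662, plus strand): acagatgtgaatgaTAACCcacctgttttt
FAT3 region 4 (chr11:92800635-92800664, plus strand): aggatcgattcctcatAGACAgcaatgggc
FAT3 region 5 (chr11:92801589-92801618, plus strand): ccgaaaaggtaatggaagcattcaatattg
FAT3 region 7 (chr11:92867034-92867063, plus strand): ctgcctGGACTcggtgatactgaataacaa
PCDHB2 region 2 (chr5:141095629-141095658, plus strand): cttatgcattttcccaagcatctgaAGACA
PCDHB16 region 2 (chr5:141183737-141183766, plus strand): taaaaccttcagtcaaGAACTtttacacct
PCDHGA4 region 3 (chr5:141357077-141357106, plus strand): tgcgcaccgcacgggccctgctGGACAgag
PCDHB14 region 4 (chr5:141225755-141225784, plus strand): atacgaggtgtgtcTGACAggaggttccgg
PCDH17 region 6 (chr13:57725520-57725549, plus strand): taatgatgcttaaagagaaaagaaaaaaag

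The second set was called in all 10 libraries. CDH2 is shown because it is the mesenchymal cadherin, and the others are a part of the 10 strongest common regions of the members. Of the rest of those 10, PCDH7 region 1 and FAT4 regions 1, 2 and 9 have no DRACH match within the 30 bases. PCDHB9 region 3 and PCDHGB5 region 1 have one. The sequences shown here are therefore not a fair sample of the motif among the strongest regions.
CDH2 region 1 (chr18:27952169-27952198, minus strand): acggttcaagAAACTtgctgacatgtatgg
FAT4 region 3 (chr4:125320569-125320598, plus strand): taaattaaataTAACAgcaaaagaccaagg
PCDH7 region 2 (chr4:30723401-30723430, plus strand): tggtcaccgtgatggatgcTGACAaggggc
PCDHB14 region 3 (chr5:141224826-141224855, plus strand): ctctctgacgtcaaTGACAacgcccccacc
PCDHGA10 region 2 (chr5:141415071-141415100, plus strand): ggcgcgagccctgctGGACAgagacgcgct

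PCDHGA4 region 3, called in T24 alone, and PCDHGA10 region 2, called in every library, share a run of 16 bases with the same motif, gccctgctGGACAgag. Clustered protocadherins are close copies of each other. The authors kept uniquely mapped reads, so reads from identical stretches could be lost or could shift a peak, and values within the clusters are uncertain to that extent. Over all members, 152 of 162 regions (93.8%) had DRACH within 50 bases of the median summit on the gene's strand and 79.0% had it on the other strand. The shares over 24979 exonic regions of all protein-coding genes were 88.4% and 72.3%. A motif match in these windows is a description and not a methylated site.

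The 10 lists held 17203 to 33120 peaks. T24 lists averaged 20456 ± 2082 peaks and T24R2 lists 25837 ± 4203 (SD, n = 5 each), with the highest number in T24R2 replicate 5. Peak lists carry no read counts, so the depth behind each library is unknown and a missing peak may lie below detection. They also cannot tell a transcript that is less methylated from one that is less abundant. The labels do not say whether replicates came from separate cultures, and p-values below measure only the spread between these libraries. Among 15 urothelial genes, 6 were marked, against 51.1% of all protein-coding genes. KRT7 and FOXA1 were marked in all 10 libraries and GATA3 in 5 of 5 T24 and 0 of 5 T24R2 libraries. UPK1A was marked in 1 library of each line, KRT18 in 2 T24R2 libraries, and PPARG in 1 T24 and 2 T24R2 libraries. UPK1B, UPK2, UPK3A, UPK3B, KRT5, KRT8, KRT19, KRT20 and TP63 were unmarked, but a peak list does not measure expression.

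Of the 92 members, 49 (53.3%) were marked, against 51.1% of all protein-coding genes, and 43 had no exonic summit in any library. The groups differed in how many members were marked. PCDHG had 20 of 22 marked genes, FAT had 3 of 4 and PCDHB had 11 of 16. CDH had 10 of 22, nonclustered PCDH had 5 of 13 and PCDHA had 0 of 15. CDH1 (E-cadherin, the main epithelial cadherin), CDH3 (P-cadherin), CDH11 (a mesenchymal cadherin), FAT2 and PCDH9 were all unmarked.

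**Figure D1:**
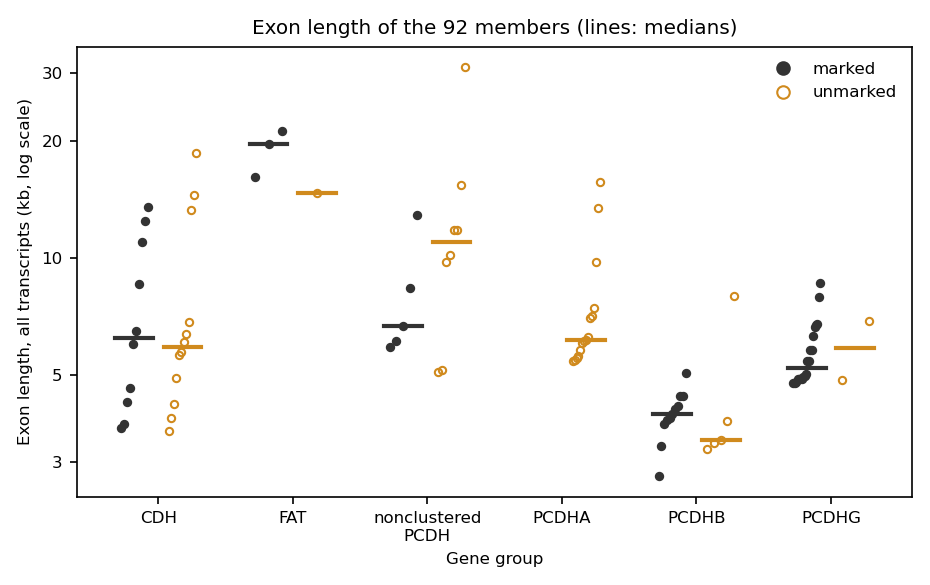
Total exon length in kb on a log scale (y) of each of the 92 members by gene group (x), with filled points for marked and open points for unmarked genes and lines at the medians. The lengths of marked and unmarked genes overlapped in the CDH, nonclustered PCDH, PCDHB and PCDHG groups, and the longest member, PCDH9, was unmarked. Lengths include exons shared within a cluster.

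Exon length did not order the members. Lengths here include exons shared within the PCDHA and PCDHG clusters, in which a summit marks no gene. Of the 4887 bp of PCDHGB5, for instance, 2710 bp were its own. Among all protein-coding genes the marked share rose with exon length, from 28.5% under 3000 bp to 74.6% at 12000 bp or more. Members of 12000 bp or more were marked in 6 of 14 cases (42.9%), and members of 3000 to under 5000 bp in 22 of 31 (71.0%). Marked members had a median of 5061 bp and unmarked members 6162 bp. The median of all members was 5804.5 bp and that of all protein-coding genes 4416 bp. PCDH9, at 30944 bp, and CDH23, a component of the hair cell tip link, at 18592 bp were unmarked.

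The members' peaks lay mostly in coding sequence. Of the 162 regions, 140 (86.4%) were in CDS, 10 (6.17%) in the 3′UTR and 11 (6.79%) in the 5′UTR, and 1 lay in a noncoding exon. Over the 25300 exonic regions of all protein-coding genes the shares were 57.8%, 27.8% and 10.4%. FAT regions were in CDS in 34 of 35 cases and PCDHG regions in 55 of 59, whereas CDH regions were in CDS in 11 of 18 and in the 3′UTR in 5. The exon at the summit was long, with a median of 2893 bp against 1123 bp over all exonic regions, and 133 regions (82.1%) lay in an exon of 1000 bp or more against 52.6%. These differences were not tested. Fold enrichment, by which the authors express IP relative to local input as a ratio, was ranked within each list as a percentile. The median region of the members stood at the 43.8th percentile and the median exonic region of all genes at the 40.7th.

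The number of marked members was 39, 32, 34, 39 and 34 in the T24 libraries and 32, 26, 27, 33 and 33 in the T24R2 libraries, in replicate order. The ranges overlapped, with means of 35.6 ± 3.21 and 30.2 ± 3.42 (SD, n = 5 each). Over the same libraries the number of marked protein-coding genes was higher in T24R2, at 8126 ± 480 against 7210 ± 351 in T24. Member peaks made up 4.42 to 5.03 of every 1000 peaks in T24 and 3.09 to 3.80 in T24R2, and these ranges did not overlap. With the same number of peaks in each list, marked members averaged 31.4 ± 1.52 in T24 and 21.6 ± 1.14 in T24R2. These are scores over the members and were not tested.

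Presence was then compared region by region with Fisher's exact test (two-sided, 5 libraries a line), which cannot give a p below 0.00794. Line-specific means called in all 5 libraries of one line and in 0 of the other. T24 had 10 line-specific regions among the 162 of the members (6.17%), against 1.05% of all regions and 0.953% of exonic regions. T24R2 had 2 (1.23%), against 3.02% and 2.3%. The numbers in T24 and T24R2 were 2 and 1 at a −log10 q of at least 5 or of at least 10, 6 and 1 with the same number of peaks in each list, and 4 and 1 when peaks had to cover at least 50% of the region. At an unadjusted p under 0.05, 15 member regions (9.26%) were called more often in T24, against 2.09% of all regions and 1.71% of exonic regions. The same held for 4 (2.47%) in T24R2, against 7.11% and 6.0%. No region passed 0.05 after Benjamini-Hochberg adjustment over the 43676 regions, members included, and the smallest adjusted p of a member was 0.195 (Fisher's exact test). Every line-specific region shares that value, since all have the smallest p of 0.00794. A region could therefore not pass on its own, whatever its calls. Raising the limit on −log10 q from 2.00 to 10 left 3 member regions more frequent in T24 and 4 in T24R2. Over all regions these counts fell from 915 and 3106 to 412 and 1682. With the same number of peaks per list the member counts were 15 and 1, and those over all regions 1143 and 1322. Regions called in all 10 libraries numbered 39 (24.1%, against 21.9% of all regions and 31.5% of exonic regions) and those called in 1 library 34 (21.0%, against 27.9%).

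At the level of whole genes, 16 of the 49 marked members were marked in all 10 libraries, against 53.8% of marked protein-coding genes. CDH6, CDH8, PCDHB2 and PCDHB16 were marked in 5 of 5 T24 and 0 of 5 T24R2 libraries. They were 8.16% of the marked members, against 1.51% of marked protein-coding genes. PCDH17 alone showed the opposite, 0 of 5 and 5 of 5, as did 2.39% of marked protein-coding genes. At an unadjusted p under 0.05 in Fisher's exact test, 7 members (14.3% of those marked) were marked more often in T24, against 2.3% of marked genes. In T24R2 it was 1 member (2.04%), against 5.8%. The smallest adjusted p of a member was 0.203 (Fisher's exact test). The other 3 of the 7 were FAT3, PCDHGA4 and PCDHGA5, each marked in 5 T24 libraries and 1 T24R2 library.

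**Figure D2:**
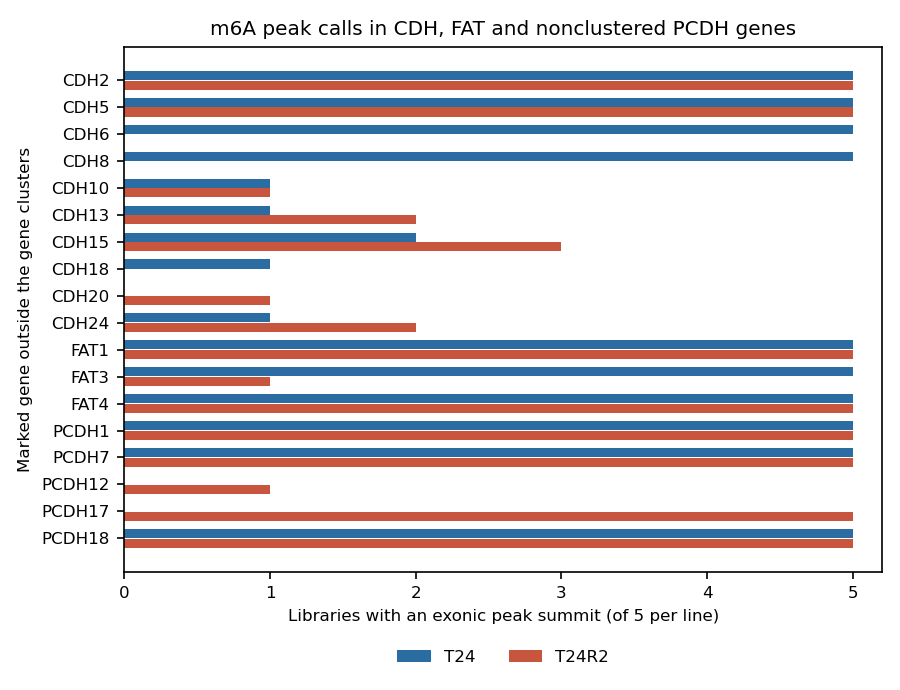
Number of libraries, of 5 per line (x), with an exonic peak summit in each marked CDH, FAT and nonclustered PCDH gene (y), in blue for T24 and in red for T24R2. CDH6 and CDH8 were marked in T24 alone, PCDH17 in T24R2 alone, and FAT3 in 5 T24 libraries and 1 T24R2 library.

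Among the classical cadherins, CDH2 (N-cadherin) had 1 region, in CDS, called in all 10 libraries. Its fold enrichment was 6.33, 4.84, 6.73, 3.81 and 3.68 in T24 and 4.40, 5.93, 4.89, 5.24 and 8.96 in T24R2. The lines overlapped throughout, and the difference in mean percentile of 11.0 points had an exact permutation p of 0.421. CDH2 region 1 stood low in the lists, at a median percentile of 26.8.

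CDH5 (VE-cadherin, of endothelial junctions) had 5 regions. Region 5, in the 3′UTR, was called in all 10 libraries, with a fold enrichment of 6.35 to 8.81 in T24 and 5.32 to 8.53 in T24R2. The other 4 were called in T24 alone. Region 4 was called in 5 T24 libraries with fold enrichments of 3.25, 5.45, 5.80, 6.39 and 4.52, and region 2 in 4 with 4.21, 2.74, 2.89 and 2.67 (Fisher's exact test, unadjusted p = 0.0476). Regions 1 and 3 were called in 1 and 2 T24 libraries. Region 4 lies in the 3′UTR of an alternative transcript, outside the exons of the canonical one, and its call was lost at a −log10 q of at least 5.

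CDH6, a type II cadherin known from kidney, and CDH8, a type II cadherin of neurons, were marked in T24 alone. CDH6 region 1 had fold enrichments of 8.17, 6.52, 10.3, 5.58 and 6.62 in the T24 libraries. CDH8 region 2 had 15.5, 9.21, 6.58, 6.96 and 8.35. Both lie in CDS, in exons of 6329 bp and 344 bp, and neither gene had another exonic region called in all 10 libraries. CDH13 (T-cadherin, which is held to the membrane by a lipid anchor) had summits in its 3′UTR in 1 T24 and 2 T24R2 libraries. An exon of the antisense gene CDH13-AS2 covers those positions, and the lists carry no strand. CDH10, CDH15, CDH18, CDH20 and CDH24 were each marked in 1 to 5 libraries.

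FAT1 and FAT4 were marked throughout. FAT1 had the most regions of any member, 18, of which 12 were called in all 10 libraries. FAT4 had 9 regions, 6 of them in all 10. FAT4 regions 1, 2, 3 and 9 ranked among the 10 strongest of the members' common regions. FAT4 region 1 had a fold enrichment of 17.4 ± 1.95 in the T24 libraries and 16.6 ± 1.53 in those of T24R2 (SD, n = 5 each), and the lines overlapped. It has no DRACH match within 50 bases of its median summit.

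FAT3 differed from them. Its 8 regions were all in CDS, and each was called in more T24 than T24R2 libraries. Regions 2, 4, 5 and 7 were called in 5 of 5 T24 libraries and no T24R2 library. FAT3 region 5 had fold enrichments of 14.3, 12.0, 11.5, 11.2 and 14.3. Region 7 had 5.30, 4.08, 14.4, 9.48 and 11.5. FAT3 region 8 was the strongest, with 33.1, 20.3, 13.5, 25.4 and 17.9 in T24 and a single T24R2 call of 5.53, in replicate 5, the longest list (Fisher's exact test, unadjusted p = 0.0476). Region 6 was called in 4 T24 libraries, and regions 1 and 3 in 1 and 2. FAT3 had no exonic region in all 10 libraries. The calls of region 2 were lost at a −log10 q of at least 5, while region 5 kept its call at 10 but not when peaks had to cover at least 50% of the region.

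**Figure D3:**
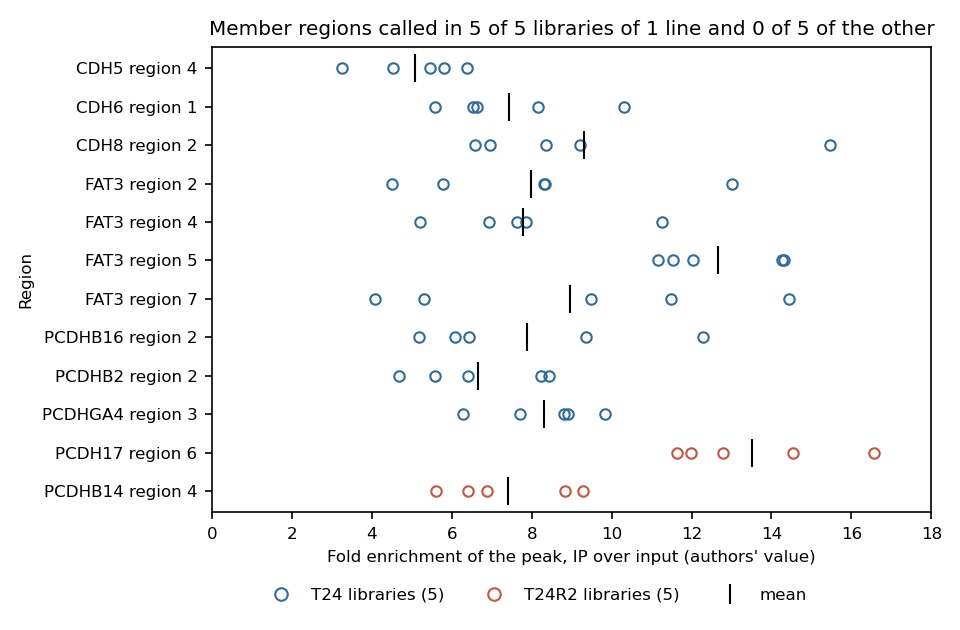
Fold enrichment of the strongest peak in each library (x, the authors' ratio of IP over input) for the 12 line-specific regions, called by all libraries of one line only (y). Circles are libraries, blue for T24 and red for T24R2, and black ticks are means of 5. FAT3 region 5 and PCDH17 region 6 have the highest lowest values, 11.2 and 11.6.

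Of the nonclustered protocadherins, PCDH17, best known from brain, was marked in T24R2 alone and had 6 regions. Region 6, in the 3′UTR, was called in all 5 T24R2 libraries with fold enrichments of 14.5, 11.6, 12.0, 12.8 and 16.6. Region 5, in the same exon of 4700 bp, was called in 4, with 10.5, 11.1, 5.18 and 9.21 (Fisher's exact test, unadjusted p = 0.0476). The other 4 were called in 1 to 3 T24R2 libraries, and no T24 library had any. Region 6 kept an unadjusted p under 0.05 in Fisher's exact test under every alternative setting tried except the replicate block. Of these settings, leaving out 1 library cannot end a line-specific call. A fold enrichment limit of 4 could not remove peaks of 11.6 or more. Those fits therefore do not test this call.

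PCDH7 had a pair of regions, both in all 10 libraries. PCDH7 region 1, in the 5′UTR, had the highest median percentile of the members' common regions, 98.6, with a fold enrichment of 16.1 ± 9.16 for T24 and 21.2 ± 7.89 for T24R2 (SD, n = 5 each). Single libraries ranged from 6.43 to 30.4, and the difference between lines was within that spread (exact permutation p = 0.373). PCDH1, an epithelial protocadherin, had 6 regions, 4 of them in all 10 libraries, and its region 3 was called in 3 T24R2 libraries and 0 T24 libraries. PCDH18 had 5 regions with 1 in all 10, and PCDH12 had 1, in a single T24R2 library.

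**Figure D4:**
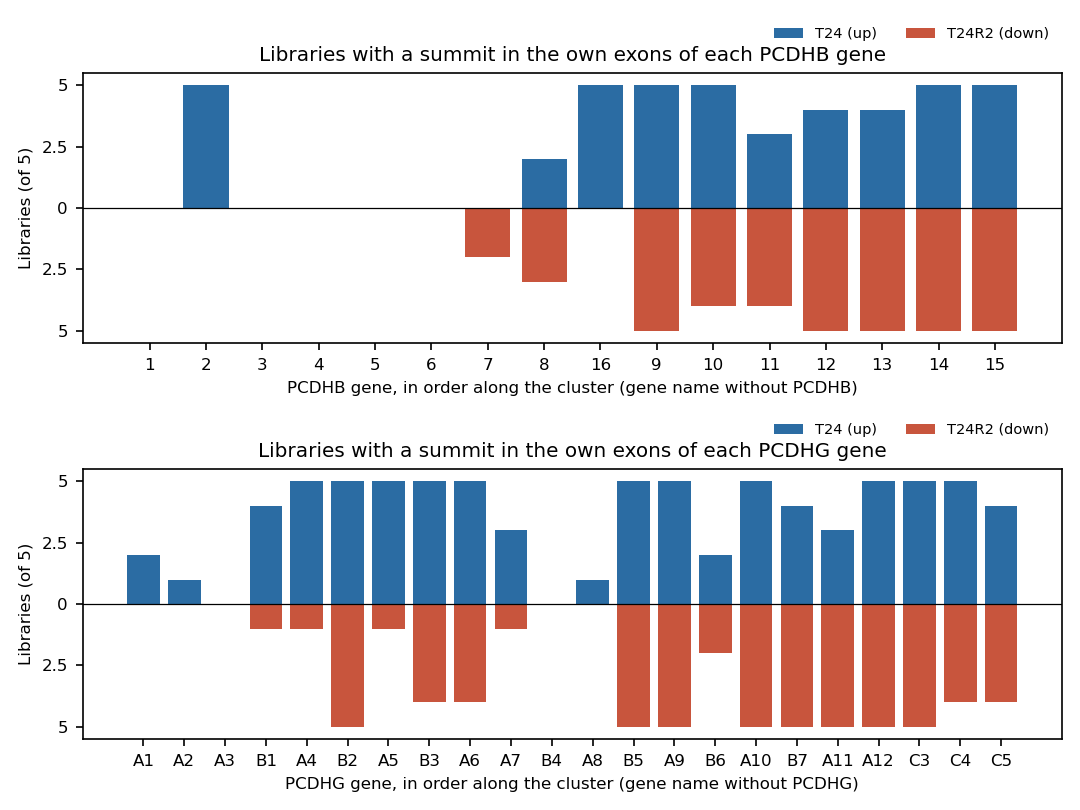
Number of libraries, of 5 per line (y), with a summit in the own exons of each PCDHB (top) and PCDHG (bottom) gene, in order along the cluster (x). Blue bars point up for T24 and red bars down for T24R2, and genes without a bar were unmarked.

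The PCDHB cluster lies on chromosome 5. PCDHB1, PCDHB3, PCDHB4, PCDHB5 and PCDHB6 were unmarked, and marked genes lay mostly at the other end. PCDHB2 region 2 was called in T24 alone, with fold enrichments of 6.39, 8.43, 4.69, 8.22 and 5.58. PCDHB16 region 2 likewise had 9.35, 6.43, 6.08, 5.19 and 12.3. An exon of PCDHB1-AS1, on the opposite strand, covers the PCDHB2 position, and an unnamed gene on the opposite strand covers that of PCDHB16. The call of PCDHB16 region 2 was lost at a −log10 q of at least 5 and with the same number of peaks per list.

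PCDHB14 held the only line-specific region of the cluster in T24R2. Region 4, in CDS, had fold enrichments of 5.61, 8.82, 6.41, 9.28 and 6.88 in T24R2 and was called in no T24 library. In the same exon, region 3 was among the strongest of the members in both lines, with 14.7, 12.2, 11.3, 14.9 and 13.9 in T24 and 14.9, 25.1, 15.0, 16.0 and 14.1 in T24R2. Region 4 lost its call with the same number of peaks per list. Over the whole cluster 16 of 30 regions were called in more T24R2 libraries, 7 in more T24 libraries and 7 in equal numbers. Among all regions, 52.6% were called in more T24R2 libraries and 19.6% in more T24 libraries, and among exonic regions of protein-coding genes 46.8% and 15.7%. Over all 162 member regions the counts were 52 in more T24R2 libraries, 59 in more T24 libraries and 51 in equal numbers.

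PCDHG genes were the most often marked group, and 55 of their 59 regions lay in exons of single genes. The direction differed along the cluster. This division was made after the values were seen and was not tested. In the first 10 genes, from PCDHGA1 to PCDHGA7, 24 of 27 regions were called in more T24 libraries, 2 in more T24R2 libraries and 1 in equal numbers. These regions had 73 calls in T24 and 25 in T24R2, whereas 19.6% of all regions were called in more T24 libraries and 52.6% in more T24R2 libraries. In the last 12 genes, from PCDHGB4 to PCDHGC5, 6 of 28 regions were called in more T24 libraries, 14 in more T24R2 libraries and 8 in equal numbers, with 68 and 80 calls.

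PCDHGA4 region 3 was the only line-specific region of the cluster, with fold enrichments of 8.81, 9.84, 7.69, 8.89 and 6.29 in T24 and no T24R2 call. PCDHGA5 region 4 had calls in 4 libraries of T24 and 0 of T24R2, and PCDHGA6 region 5, in a 3′UTR outside the canonical transcript, in 5 and 1 (Fisher's exact test, unadjusted p = 0.0476 for each). PCDHGB5, PCDHGA9, PCDHGA10, PCDHGA12, PCDHGC3 and PCDHGB2 were marked in all 10 libraries. PCDHGA10 region 2 was the strongest of the cluster, at 14.0 ± 3.17 for T24 and 16.6 ± 3.63 for T24R2 (SD, n = 5 each), a difference with an exact permutation p of 0.135.

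The constant exons of the cluster, shared by all 22 PCDHG genes, held 4 regions. Shared region 1 was called in all 10 libraries, and region 2 in 3 of each line. Region 3, in CDS, was called in 5 T24R2 libraries at fold enrichments of 2.51, 3.73, 2.60, 3.14 and 3.92 and in 1 T24 library at 3.38 (Fisher's exact test, unadjusted p = 0.0476). A transcript of any PCDHG gene can give these peaks. PCDHA genes had no summit in their own or shared exons in any library.

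Of the 12 line-specific regions, 3 belonged to genes with a further exonic peak in every one of the 10 libraries, namely CDH5, PCDHB14 and PCDHGA4. For PCDHGA4 that region was in the shared exons, so it does not show that the gene's own transcript was detected. The other regions have no such measure of the transcript in both lines.

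For the 39 member regions called in all 10 libraries, the mean percentile of fold enrichment was compared by a two-sided exact permutation test over all assignments of the libraries. Of the 39, a single region, FAT4 region 5, ranked lower in T24R2 at an unadjusted p under 0.05, and 4 ranked higher. Over the 9577 regions called in all 10 libraries the shares were 3.04% and 10.9%, close to those of the members. No region passed 0.05 after adjustment over the 9577 regions (members and others), and the smallest adjusted permutation p of a member was 0.176. This test also cannot give a p below 0.00794, so a region could not pass on its own.

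FAT4 region 5 had fold enrichments of 13.2, 10.6, 8.63, 6.13 and 8.02 in T24 and 5.66, 4.63, 5.35, 6.12 and 4.69 in T24R2. Its percentile ranges did not overlap, and the mean fell by 38.4 points, from 67.3 ± 18.8 to 29.0 ± 10.9 (SD, n = 5 each, exact permutation p = 0.00794). FAT1 region 8 had 3.25, 2.51, 3.36, 2.39 and 3.16 in T24 and 3.63, 15.8, 3.71, 5.61 and 4.09 in T24R2. Every T24R2 value was above every T24 value, with a difference of 27.5 points (exact permutation p = 0.00794). Without T24R2 replicate 2, whose value was the highest, the difference was 12.3 points, and without any 1 of the T24 replicates the exact permutation p was 0.0873 to 0.111. PCDHGC3 region 2 was higher in T24R2 by 24.8 points (exact permutation p = 0.0476), PCDH18 region 1 by 22.0 points (exact permutation p = 0.0476) and PCDHB14 region 3 by 5.90 points (exact permutation p = 0.0397), all with overlapping ranges. Leaving out 1 library ended these 3 calls in 6, 7 and 7 of 10 fits, in that order, and ended the call of FAT4 region 5 in 0. The PCDHGC3 call was lost without T24 replicates 1, 3 or 5 or T24R2 replicates 3, 4 or 5, and by the mean over the peaks of the region its difference was 9.12 points (exact permutation p = 0.516). The PCDH18 call was lost without T24 replicates 2, 3, 4 or 5 or T24R2 replicates 1, 2 or 5, with 14.2 points without T24 replicate 2 (exact permutation p = 0.0714). The PCDHB14 call was lost without T24 replicates 1, 2 or 3 or T24R2 replicates 1, 2, 3 or 4, with 3.52 points without T24 replicate 3 (exact permutation p = 0.0794). When all lists were cut to equal length, 0 regions passed in either direction among those still called in all 10 libraries. FAT4 region 5 and FAT1 region 8 were no longer among those, so their ranks could not be compared. The same held for both at a −log10 q of at least 5 or of at least 10. PCDH18 region 1 also dropped out at these q limits, and FAT1 region 8 at a fold enrichment of at least 4.

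**Figure D5:**
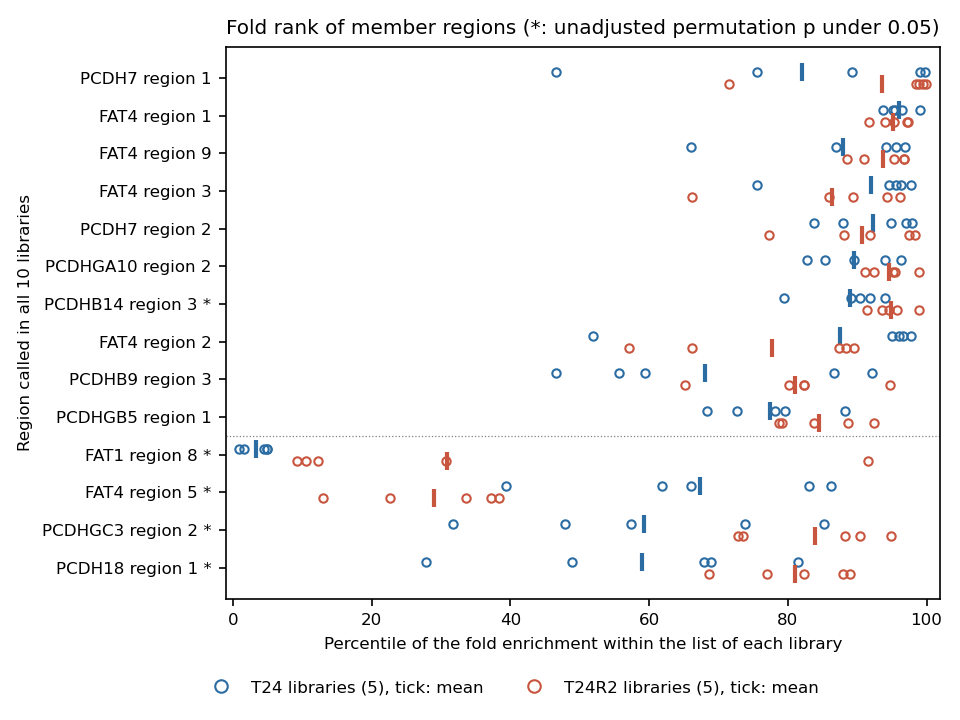
Percentile of the fold enrichment within the list of each library (x) for the 10 strongest member regions called in all 10 libraries and, below the dotted line, for the other 4 with an unadjusted permutation p under 0.05 (y). Circles are libraries, blue for T24 and red for T24R2, and ticks are means of 5. FAT4 region 5 is lower and FAT1 region 8 higher in T24R2 without overlap, and most of the strongest regions overlap.

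Other genes of the adhesion machinery, outside the members, were counted in the same way. Of 40 listed genes, 22 were marked and 14 were marked in all 10 libraries. In Fisher's exact test 0 had an unadjusted p under 0.05 in either direction. Over all protein-coding genes 51.1% were marked, and 53.8% of the marked ones were marked in all 10 libraries. At the same limit 2.3% of marked protein-coding genes were marked more often in T24 and 5.8% in T24R2. Catenins and partners were marked in 5 of 12 cases, with CTNND1 (p120-catenin), VCL, AFDN and ARVCF in all 10 libraries and CTNNB1 (β-catenin) in 4 T24 and 5 T24R2 libraries. CTNNA1 and JUP were unmarked. Desmosomal genes and plakophilins were marked in 7 of 12 cases. Other cadherin superfamily genes were marked in 8 of 14, with CELSR1, CELSR2, CELSR3, DCHS1 (the ligand of FAT4) and CLSTN1 in all 10 libraries. FJX1 and ADAM10 (a protease that sheds cadherin ectodomains) were also marked in all 10.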

How the data were processed

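The input was 1 peak list for each of the 10 IP libraries. Per the paper's methods and the submitters' processing notes, the authors aligned reads to hg38 (GRCh38) with STAR 2.7.0, kept uniquely mapped reads without duplicates with SAMtools 1.10 and called peaks of IP over input per library with MACS2 3.0.0a6, without model building. The deposited fold enrichment is the authors' ratio of IP signal to local input signal. The deposited −log10 p-value, −log10 q-value and score of each peak were likewise made by the authors' peak caller, and the lowest −log10 q was 2.00. The authors' merged list was identical to the merge of the 10 lists. Since these lists carry no counts of reads, differential tests on counts, as in the study, were not possible and no interval that needs depth is given.

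Exons were those of GENCODE 44, a later release than the authors used. A library had a region when a peak overlapped it by at least 1 bp, and a gene when a summit lay in an exon used by no other member. Fisher's exact test (two-sided) was used for presence, and for the percentile of fold enrichment an exact permutation test (smallest p 0.00794), each with Benjamini-Hochberg adjustment over all features (Python 3.11.15, scipy 1.17.1, bedtools 2.31.1). The tests were tested on simulated data. Members and lists were chosen with earlier results of these data known. Of the genes that meet the symbol rule and of the listed adhesion genes, 1 each is not reported here. CDH1, CDH2, CDH3, CDH5, CDH6, CDH11, CDH13, the FAT genes, PCDH1, PCDH7 and PCDH9 were named whatever their values. Every line-specific region, every region with an unadjusted p under 0.05 and the 10 strongest common regions were named or plotted. The alternatives were limits of 5 and 10 on −log10 q, a fold enrichment limit of 4, lists shortened to 17203 peaks, other exon, cover and ranking rules, a replicate block, and omission of each library.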

Additional observations from a re-analysis of the deposited data

Results flagged for a closer look

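Among 46 groups of 5 libraries tested, 6 held a library whose gap to the nearest of the others exceeded 0.71 of the group's range, Dixon's critical value. Chance gives about 1 in 20 groups where values are independent and normally distributed. Many of these groups were percentiles of regions picked for a high or shifted rank, so that rate need not hold here. T24R2 replicate 5 listed 33120 peaks, against 25603 in the next longest T24R2 list. Its percentile of fold enrichment at CDH2 region 1 was 71.5, against 29.1 in the next T24R2 library. T24R2 replicate 2 stood at the 91.6th percentile at FAT1 region 8, against 30.7 in the next. T24 replicate 2, the shortest list, stood at the 52.0th percentile at FAT4 region 2, where the next lowest T24 library was at 95.0, and at the 75.5th at FAT4 region 3, where the next was at 94.6. T24R2 replicate 4 stood at the 71.5th percentile at PCDH7 region 1, against 98.4 in the next lowest T24R2 library.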

How the results depend on the processing

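No line-specific presence difference and no shifted fold rank changed sign under any alternative where it could be computed. FAT4 region 5 and FAT1 region 8 had no value at the −log10 q limits or with the same number of peaks per list. Other named regions were not followed through the alternatives. The difference in marked members per library did not change sign, but the balance of counts between the lines turned under some alternatives. Of the 12 line-specific calls, 10 were lost at a −log10 q of at least 10 and 8 at a cover of at least 50%. At a −log10 q of at least 5, and with the same number of peaks per list, 3 each were lost. A call counted as lost when its unadjusted p in Fisher's exact test was no longer under 0.05, so 4 libraries against 0 kept it. Member regions at 5 against 0 numbered 2 in T24 and 1 in T24R2 at a −log10 q of at least 5. With the same number of peaks per list they numbered 6 and 1. A −log10 q of at least 5 gave 0 lower-ranked and 2 higher-ranked member regions in T24R2, in place of 1 and 4. A −log10 q of at least 10 gave 3 regions called more often in T24 and 4 in T24R2 (15 and 4 in the report), 0 lower-ranked regions and 1 member marked more often in T24 (7 in the report). With the same number of peaks per list, the difference in marked members per library (T24R2 minus T24) was -9.8 in place of -5.4, 1 region was called more often in T24R2 in place of 4, and 0 ranked lower or higher. A cover of at least 50% gave 9 member regions more frequent in T24 and 5 in T24R2, against 519 and 3078 over all regions. Lower-ranked and higher-ranked regions numbered 3 and 2 by the percentile of −log10 q and 2 and 1 by the percentile over regions in all 10 libraries, and 2 ranked higher on the log2 fold enrichment. The cause of these changes was not tested. No region or gene passed adjustment under any setting. As the tests cannot give a p below 0.00794, passing would need a large share of all features near that p.

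Leaving out each library gave 15 to 19 regions more frequent in T24 and 4 to 7 in T24R2, the 7 without T24R2 replicate 2. It gave 1 to 3 lower-ranked regions, with 3 without T24R2 replicate 4, where 2 ranked higher, and 2 without T24 replicate 2, T24 replicate 5 or T24R2 replicate 5. Higher-ranked regions numbered 1 to 4, with 1 without T24 replicates 1, 3 or 5 and 2 without T24 replicate 2 or T24R2 replicates 2, 3 or 4. Marked members numbered 47 to 49, the difference per library was -6.3 to -4.35, and 7 to 8 members were marked more often in T24.

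Replicate numbers were shared by the lines, but same-numbered libraries did not deviate together over regions (correlations of deviations from -0.030 to 0.111), so the numbers do not pair the libraries. With a replicate block over 5 pairs the smallest possible p is 0.0625, and all 6 counts of regions and members were 0 by construction. Depth is unknown, so an absent call may lie below detection.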

Other observations

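A further 29 regions had summits inside member genes but in no exon, and 27 of these overlapped no exon of any gene. Of the 27, 12 were called in 1 library and 1 in all 10, the latter in an intron of CDH13 at chr16:83793441-83794321 with fold enrichments of 5.32 to 18.7. A region at the start of CDH2, chr18:28177212-28178028, overlaps an exon although it had summits outside exons, and it was called in all 10 libraries with 6.12 to 15.8. A pair of intronic regions of CDH8 had calls in 5 libraries of T24 and 0 of T24R2, as its exonic region 2 was. They lay at chr16:61919042-61919590, with fold enrichments of 7.25 to 10.2, and at chr16:61920878-61921076, with 7.48 to 18.3 (Fisher's exact test, unadjusted p = 0.00794 for each). An intronic region of PCDH7 had calls in 4 libraries of T24 and 0 of T24R2 (Fisher's exact test, unadjusted p = 0.0476), although both exonic regions of that gene were called in all 10. CDH17, CDH22 and PCDH11X, unmarked in their exons, had intronic calls of their own. These regions were looked at after the exonic ones and were not part of the planned comparisons.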
